A study of Mus musculus with 10 samples.

Results

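The 7 genes described here, Snai1, Snai2, Twist1, Twist2, Zeb1, Zeb2 and Prrx1, encode the transcription factors best known for driving epithelial-to-mesenchymal transition (EMT). They were taken by symbol from the 23230 features of the deposited expression matrix, and 7 of 7 were present. Expression was given as FPKM, a fragment count scaled to the length of the transcript and the size of the library, in 10 mouse RNAseq libraries.

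All libraries came from C57BL/6 cells that lack p16/p19 and carry a retrovirus for human EGFRvIII, a constitutively active EGF receptor. The 3 AstroEGFR libraries were of cortical astrocyte cultures of postnatal day 5, each from its own astrocyte batch. The 4 PT libraries were of glioma propagating cells grown from tumours that such astrocytes had formed in CD1 Nude mice, where batch 1 gave PT1 and PT4, batch 2 gave PT2 and batch 3 gave PT3. The 3 AstroEGFR_Zfp423 libraries were of the 3 astrocyte batches with a further vector that overexpresses Zfp423, a zinc finger transcription factor. All cells were at a passage below 10. The study grew the astrocytes with serum and the PT cells without serum in EGF and FGF2, so that tumour passage and medium cannot be told apart.

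EMT transcription factors silence epithelial genes and turn on mesenchymal ones. Snai1, Snai2, Zeb1 and Zeb2 are zinc finger repressors that bind E-box motifs, Twist1 and Twist2 are basic helix-loop-helix factors that pair with E proteins, and Prrx1 is a homeodomain factor. They act in gastrulation, in the neural crest and in fibroblasts, and in glioma several of them have been tied to invasion and to a mesenchymal state.

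The libraries differed in more than their labels. Between 26.7% and 39.4% of features were listed at 0, with the highest shares in PT3 and AstroEGFR_3, and small RNA took between 0.209% and 54.5% of the summed FPKM. Gapdh, a glycolytic gene that all cells use, was listed at 0.0106 to 50.1 FPKM, so a value near 0 is taken here only as listed. Zfp423 stood at 3.25 to 4.30 FPKM in AstroEGFR, 0.641 to 2.78 in PT and 9.73 to 105 in AstroEGFR_Zfp423. The AstroEGFR_Zfp423 libraries did not lie nearest to their own batch. Over 12476 features the log2 values of AstroEGFR_3_Zfp423 had r = 0.884 with AstroEGFR_2 and r = 0.721 with AstroEGFR_3, while AstroEGFR_1_Zfp423 and AstroEGFR_2_Zfp423 had r = 0.874 with each other and r = 0.770 and 0.783 with the astrocytes of their batches. Of the 6 microglia or macrophage markers, 0 were below 1 FPKM in AstroEGFR_1_Zfp423 and AstroEGFR_2_Zfp423, where they summed to 843 and 471 FPKM. In the other 8 libraries they summed to between 0.0692 and 5.09. The 8 astrocyte markers summed to between 142 and 971 FPKM in 9 libraries and to 7.85 in AstroEGFR_2_Zfp423, where 4 of 8 were below 1, against its label as astrocytes.

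Because FPKM is scaled to transcript length, the factors can be ordered within a library. Zeb1, Twist1 and Prrx1 held the first 3 ranks in 9 of the 10 libraries, and in PT2 the first 3 were Zeb1, Prrx1 and Zeb2. Twist1 ranked first in AstroEGFR_1 and AstroEGFR_2, Zeb1 in PT1, PT2 and PT4, and Prrx1 in the other 5. Snai1, Snai2 and Twist2 were low, at no more than 20.4 FPKM in any library, and Zeb2 was at 11.7 to 30.4 FPKM, rank 3 or 4 in 9 libraries and the lowest of the 7 in AstroEGFR_3. On the log2(FPKM + 1) scale the AstroEGFR means were 6.36 ± 0.54 for Twist1, 6.14 ± 0.80 for Prrx1, 5.20 ± 0.20 for Zeb1 and 4.19 ± 0.45 for Zeb2 (SD, n = 3). Those of Snai1, Twist2 and Snai2 were 2.60 ± 1.74, 2.30 ± 1.34 and 2.25 ± 1.34, an order within their spread. Twist1 and Prrx1 differed by less than the spread of Prrx1. In PT, Zeb1 came first at 6.66 ± 0.21, ahead of Prrx1 at 6.16 ± 1.28, a gap smaller than the spread of Prrx1 (SD, n = 4). Twist1 at 4.50 ± 1.18 and Zeb2 at 4.43 ± 0.12 did not differ beyond their spread either.

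**Figure D1:**
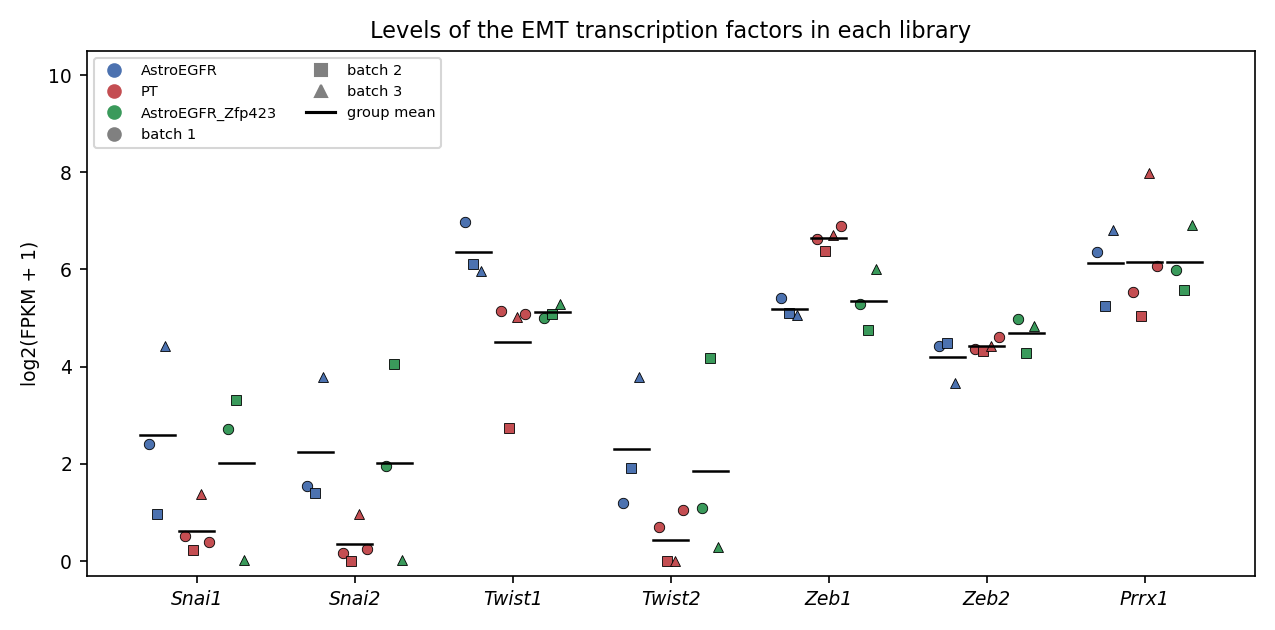
Expression of the 7 factors in each library as log2(FPKM + 1), with 1 point per library coloured by group, the marker shape giving the astrocyte batch and the black line the group mean. The 4 PT points of Zeb1 lie above all points of the other groups, and the PT points of Snai1, Snai2 and Twist2 lie near the bottom of the axis.

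PT and AstroEGFR were compared to ask which factors differed between tumour-derived cells and the astrocytes they came from. Zeb1 was higher in PT, Snai2, Twist1 and Twist2 were lower in all PT libraries than in any AstroEGFR library, Snai1 was lower with overlap, and Zeb2 and Prrx1 overlapped. With limma on log2(FPKM + 1), 1 of the 7 factors, Zeb1, passed a Benjamini-Hochberg adjusted p of 0.05. Among all 12261 features tested, 1.24% were called, 0.318% as higher and 0.922% as lower. For 4 of 7 factors the groups did not overlap, 1 higher and 3 lower, beside 14.8% of all features (6.95% higher, 7.81% lower). Snai1, Snai2 and Twist2 averaged below 1 FPKM in PT and entered the test only through their AstroEGFR values, so their place in these counts follows in part from the filter. With the astrocyte batch as a block, 3.87% of features and the same 1 of 7 factors were called. The median difference of all features tested was 0.03 (log2).

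Zeb1 encodes a repressor with zinc finger clusters at both ends and a central homeodomain. It was listed at 41.9, 33.5 and 32.3 FPKM in AstroEGFR_1, 2 and 3, and at 98.4, 82.9, 103 and 117 FPKM in PT1 through PT4. All 4 PT values lay above all 3 astrocyte values, and the spread within each group was narrow. The mean FPKM was 2.80 times as high in PT, and the difference was 1.46 ± 0.23 (log2, SE; limma adjusted p = 0.0300; exact permutation test, two-sided, p = 0.0286, the smallest that 35 splits allow). Within its own batch, each tumour stood above its astrocytes, at 2.35 (PT1), 2.48 (PT2), 3.20 (PT3) and 2.80 (PT4) times their level. The adjusted p did not stay below 0.05 when any 1 library was left out, where it ran from 0.0512 to 0.114, nor when PT1 and PT4, from the same batch, were averaged (0.0898).

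Zeb2 encodes the close relative of Zeb1 that binds SMAD proteins and acts in the neural crest and in glia. It was listed at 20.5, 21.4 and 11.7 FPKM in AstroEGFR_1, 2 and 3 and at 19.5, 19.1, 20.6 and 23.3 FPKM in PT1 through PT4. The groups overlapped, with AstroEGFR_3 the lowest library. The difference was 0.24 ± 0.26 (log2, SE; limma adjusted p = 0.766). Without AstroEGFR_3 it was -0.02, so its sign rested on that library.

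The levels can also be set against each other within a library. The ratio of Zeb1 to Zeb2 FPKM was 2.05, 1.57 and 2.75 in AstroEGFR_1, 2 and 3 and 5.06, 4.34, 5.02 and 5.05 in PT1 to PT4. The PT ratios were all higher and close to one another. The mean log2 ratio was 1.05 ± 0.41 in AstroEGFR (SD, n = 3) and 2.28 ± 0.11 in PT (n = 4), a difference of 1.23. The gap between the groups in Zeb1 alone nearly fixed this order, so the ratio is given without a test. The ratio of Zeb1 to Twist1 was 0.336, 0.487 and 0.521 in AstroEGFR and 2.87, 14.6, 3.27 and 3.55 in PT1 to PT4. Every astrocyte library held more Twist1 than Zeb1 and every PT library more Zeb1 than Twist1. The mean log2 ratios were -1.18 ± 0.34 and 2.23 ± 1.10, a difference of 3.42. Since Zeb1 was higher and Twist1 lower in every PT library, this ratio had to separate the groups and was not tested either. The ratio of Prrx1 to Twist1 overlapped between the groups, with a mean log2 difference of 1.95 (exact permutation test, p = 0.114).

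**Figure D2:**
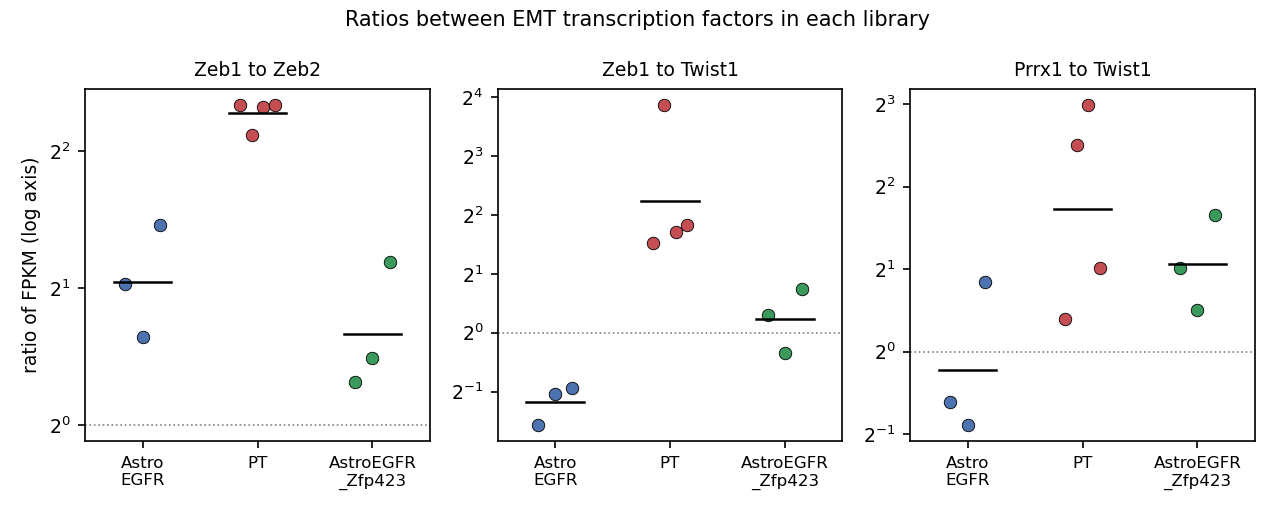
Ratios of FPKM between factors in each library on a log2 axis, with 1 point per library, black lines for the mean of the log2 ratios and a dotted line at equal levels. The PT ratios of Zeb1 to Zeb2 and of Zeb1 to Twist1, orders that the levels of Zeb1 and Twist1 largely fix, lie above all AstroEGFR ratios, and those of Prrx1 to Twist1 overlap with them.

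Zeb1 and Zeb2 are both targets of the miR-200 family, which they repress in turn. The mature family members are printed here from RefSeq (GRCm38.p6), with the seed (bases 2 to 8) in capitals, to show which sites were sought. They fall into 2 seed groups, 1 with 3 members and 1 with 2.
mmu-miR-200b-3p: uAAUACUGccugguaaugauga
mmu-miR-200c-3p: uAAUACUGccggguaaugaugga
mmu-miR-429-3p: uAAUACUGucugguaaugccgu
mmu-miR-200a-3p: uAACACUGucugguaacgaugu
mmu-miR-141-3p: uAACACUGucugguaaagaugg
The genes lie on chromosome 4 (Mir200a, Mir200b, Mir429) and chromosome 6 (Mir200c, Mir141). Their rows, and those of Mir205 and Mir34a, were listed at 0 FPKM in all 10 libraries, 7 of 7. Libraries of this kind do not capture mature miRNA, so this says nothing of its level. The letters CAGTATT and CAGTGTT, which pair with the seeds, were counted on the sense strand of the 3′ UTR of the longest coding transcript (GENCODE M21, GRCm38). Zeb1 held 9 in 2401 bases (3.75 per kilobase) and Zeb2 held 9 in 4941 bases (1.82 per kilobase). Snai2 held 2, Snai1 held 1, and Twist1, Twist2 and Prrx1 held 0. Over 20815 genes the density was 0.26 per kilobase, and 25.8% of genes held at least 1. The first 3 matches of the Zeb2 3′ UTR are printed with the seed match in capitals, on the minus strand of chromosome 2.
Zeb2 chr2:44988357-44988378: gcaaaaattttgtaCAGTGTTa
Zeb2 chr2:44988173-44988194: gcactaccatacatCAGTATTt
Zeb2 chr2:44988108-44988129: gcactacagtgcatCAGTATTa
A match describes the sequence only.

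Twist1 encodes a basic helix-loop-helix factor of cranial mesoderm and neural crest. It was listed at 125, 68.7 and 61.9 FPKM in AstroEGFR_1, 2 and 3 and at 34.3, 5.66, 31.6 and 33.1 FPKM in PT1 through PT4. All PT values lay below all astrocyte values, with PT2 far below the other 3. The difference was -1.86 ± 0.63 (log2, SE) and did not pass the test (limma adjusted p = 0.254; exact permutation test, p = 0.0286). That permutation p is the smallest that 35 splits allow, and here, as for Twist2 and Snai2, it only restates the lack of overlap. Without PT2 the difference was -1.27. Within batches the PT level was 0.275 (PT1), 0.0825 (PT2), 0.510 (PT3) and 0.265 (PT4) times that of its astrocytes.

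Twist2, its paralogue of dermis and bone precursors, was listed at 1.27, 2.78 and 12.8 FPKM in AstroEGFR_1, 2 and 3 and at 0.624, 0, 0 and 1.08 FPKM in PT1 through PT4. The PT values lay below the astrocyte values, but PT4 and AstroEGFR_1 were close. The difference was -1.86 ± 0.65 (log2, SE; limma adjusted p = 0.268; exact permutation test, p = 0.0286). AstroEGFR_3 was the highest of the 3 astrocyte libraries for Twist2, Snai1 and Snai2, and without it Twist2 and Snai2 averaged below 1 FPKM and could not be tested.

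Snai1 encodes the repressor of Cdh1 that acts early in gastrulation. It was listed at 4.32, 0.952 and 20.4 FPKM in AstroEGFR_1, 2 and 3 and at 0.420, 0.172, 1.60 and 0.317 FPKM in PT1 through PT4. PT3 lay above AstroEGFR_2, so the groups overlapped, although each tumour was below the astrocytes of its own batch. The difference was -1.97 ± 0.77 (log2, SE; limma adjusted p = 0.320; exact permutation test, p = 0.0571). It was -1.06 without AstroEGFR_3 and -2.79 without AstroEGFR_2, so its size rested on single astrocyte libraries.

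Snai2, which encodes Slug of the neural crest, was listed at 1.92, 1.66 and 12.9 FPKM in AstroEGFR_1, 2 and 3 and at 0.120, 0, 0.965 and 0.183 FPKM in PT1 through PT4. All PT values lay below all astrocyte values, and in both groups the batch 3 library was the highest. The difference was -1.90 ± 0.63 (log2, SE; limma adjusted p = 0.243; exact permutation test, p = 0.0286).

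Prrx1 encodes a homeodomain factor of limb and craniofacial mesenchyme. It was listed at 81.7, 36.9 and 111 FPKM in AstroEGFR_1, 2 and 3 and at 45.2, 32.2, 251 and 66.7 FPKM in PT1 through PT4. PT3 held the most and PT2 the least of all 7 libraries, and in both groups batch 3 stood highest and batch 2 lowest. The difference was 0.02 ± 0.71 (log2, SE; limma adjusted p = 0.994), and without PT3 it was -0.58. Its paralogue Prrx2 was listed at 15.9, 19.4 and 23.8 FPKM in AstroEGFR and at 0.171, 2.26, 0.631 and 0.152 in PT1 to PT4, a PT mean below 1 FPKM, so that it too entered the test only through AstroEGFR. Prrx2 fell in PT by 3.64 ± 0.42 on the log2 scale (SE; limma adjusted p = 0.0111).

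**Figure D3:**
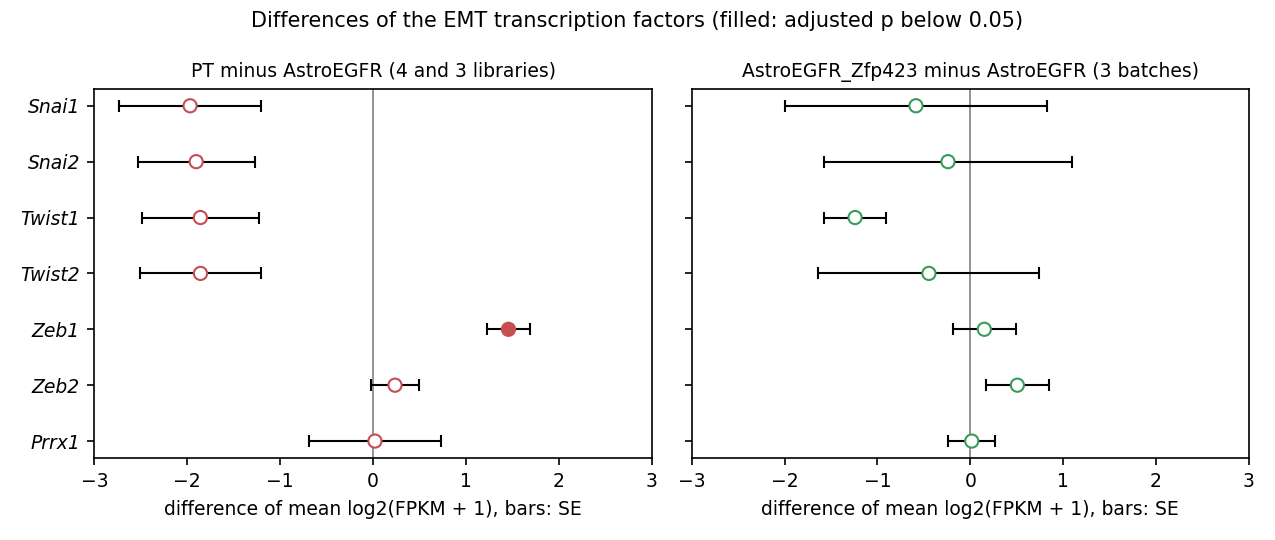
Differences of mean log2(FPKM + 1) for the 7 factors in PT against AstroEGFR (left) and in AstroEGFR_Zfp423 against AstroEGFR (right), with bars of 1 SE and filled points for an adjusted p below 0.05. Zeb1 at 1.46 in PT is the filled point. The 2 comparisons share the AstroEGFR libraries.

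Snail and Zeb proteins bind the E-box CACCTG, and Snai1 is known to bind its own promoter. Windows from 250 bases before to 50 after the gene start (RefSeq, GRCm38.p6) were available for 5 of the 7 factors, as 8 windows. The letters CACCTG or CAGGTG, the same motif on either strand, occurred in 1 of them, that of Snai1, 126 bases upstream of the start, and in 20.2% of all 32851 windows. The Snai1 window (chr2:167537945-167538244, plus strand) is printed with the motif in capitals, beside that of Twist1 (chr12:33957421-33957720, plus strand), which lacks it. Both genes stood lower in PT within every batch, but so did Snai2 and Twist2, so this pair was a choice.
Snai1: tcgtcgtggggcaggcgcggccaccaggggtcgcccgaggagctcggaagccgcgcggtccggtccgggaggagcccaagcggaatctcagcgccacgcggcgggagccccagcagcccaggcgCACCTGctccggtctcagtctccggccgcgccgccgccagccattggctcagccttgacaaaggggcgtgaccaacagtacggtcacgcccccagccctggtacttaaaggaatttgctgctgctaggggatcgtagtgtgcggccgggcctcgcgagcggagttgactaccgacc
Twist1: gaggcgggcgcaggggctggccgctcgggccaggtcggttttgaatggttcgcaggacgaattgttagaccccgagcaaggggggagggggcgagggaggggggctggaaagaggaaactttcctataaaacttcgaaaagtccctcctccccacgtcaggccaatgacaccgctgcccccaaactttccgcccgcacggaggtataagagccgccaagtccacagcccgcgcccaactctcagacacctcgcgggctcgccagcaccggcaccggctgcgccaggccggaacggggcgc

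Across the 10 libraries the low factors varied together. On log2(FPKM + 1), r was 0.94 between Snai1 and Snai2, 0.92 between Snai2 and Twist2 and 0.79 between Snai1 and Twist2. Zeb1 ran opposite to them, with r of -0.82 to Snai2, -0.77 to Twist2 and -0.74 to Snai1. Twist1, Zeb2 and Prrx1 had no r beyond 0.58 in size with any other factor. These values describe 10 libraries that share batches and groups. The features most like each factor were taken from the 12143 used. Picking the highest of so many values over 10 libraries raises r, and these were not tested. The 3 others most like Snai2 were Actg2, a smooth muscle actin (r = 0.970), Hspb1 and Gpr39. Snai1 was most like St6galnac2 (r = 0.976), Igfbp7 and Ifitm1, and Twist2 most like Hspb2 (r = 0.941), Fstl3 and Tnmd. Zeb1 was most like 6530418L21Rik (r = 0.977), Mpdu1 and Kcnc1, and Twist1 most like Erc1 (r = 0.946), Taf4a and Serpinb8. Zeb2 was most like Zfp68 (r = 0.938), A530054K11Rik and AA987161, and Prrx1 most like Tmem181b-ps (r = 0.940), Zfp935 and Cdk9.

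The low factors also moved in part with markers of another cell type. Of the 8 fibroblast or meninges markers, 8 had a lower mean in PT and 2 were called lower, Ogn and Pdgfrb, beside 0.922% of all features. Dcn and Lum averaged below 1 FPKM in PT and were tested only through AstroEGFR. The 8 markers summed to 516, 279 and 3659 FPKM in AstroEGFR_1, 2 and 3, to 55.0, 20.0, 295 and 35.5 in PT1 to PT4, and to 3277, 3784 and 38.8 in AstroEGFR_1_Zfp423, 2 and 3. In AstroEGFR_3_Zfp423, 2 of the 8 were at 0. The summed FPKM of Snai1, Snai2 and Twist2 was 7.52, 5.39 and 46.1 in AstroEGFR, 1.17, 0.172, 2.57 and 1.58 in PT, and 9.61, 41.5 and 0.248 in AstroEGFR_Zfp423. AstroEGFR_1_Zfp423 went another way, with markers far above AstroEGFR_1 (3277 against 516) but factors close to it (9.61 against 7.52). Col1a1 and Col3a1 made up most of the marker sum in AstroEGFR_3, PT1, PT3, AstroEGFR_1_Zfp423 and AstroEGFR_2_Zfp423. Without these collagens the other 6 markers summed to 373, 145 and 725 FPKM in AstroEGFR, to between 19.3 and 28.2 in PT, and to 571, 249 and 32.2 in AstroEGFR_Zfp423. On that sum AstroEGFR_3 was the highest, and AstroEGFR_2_Zfp423 lay below AstroEGFR_1, although its factors summed higher. Of the 8 markers, 6 were higher and 2, Lum and Islr, lower in AstroEGFR_2_Zfp423 than in AstroEGFR_2. Oligodendrocyte lineage markers shifted too, with 5 of 6 tested higher in PT and 0 called, beside 1.24% of all features. They summed to 1357 and 1689 FPKM in PT1 and PT4, to 145 and 131 in PT2 and PT3, and to between 66.8 and 223 in AstroEGFR. The part of these cell types in the result was not tested, and in bulk RNA fewer cells of a type and less RNA per cell cannot be told apart.

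**Figure D4:**
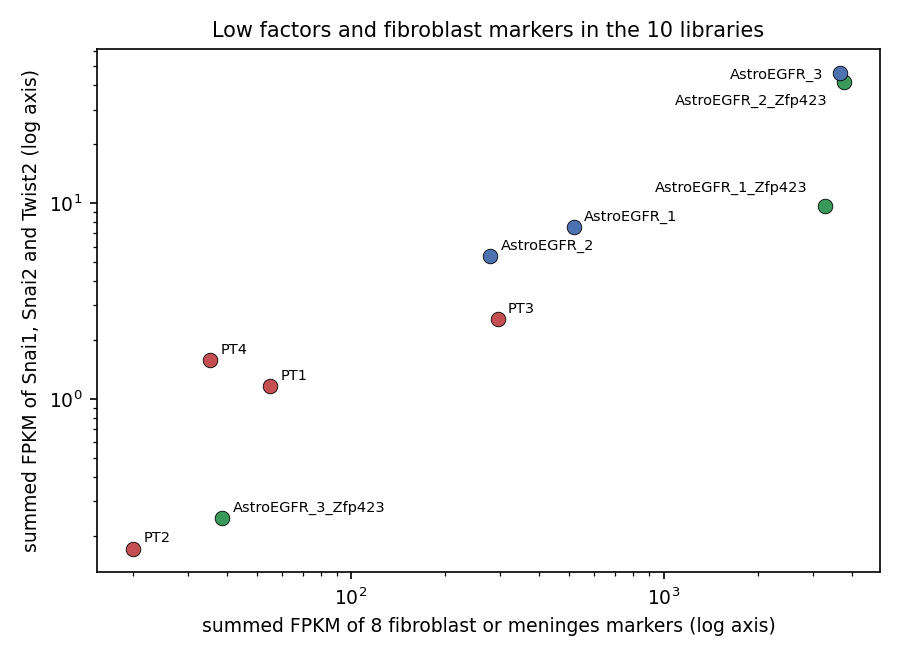
Summed FPKM of Snai1, Snai2 and Twist2 against the summed FPKM of 8 fibroblast or meninges markers, with 1 point per library and both axes logarithmic. PT2 and AstroEGFR_3_Zfp423 lie at the lower left, and AstroEGFR_3 and AstroEGFR_2_Zfp423 at the upper right. AstroEGFR_1_Zfp423 lies far to the right, but at a factor sum of only 9.61.

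The genes around the factors were described by list. Among 24 tested mesenchymal genes that EMT raises, 4 were called lower in PT and 0 higher, beside 0.922% and 0.318% of all features, and the list median was -2.87 beside 0.03 for all features. Tagln and Acta2, contractile proteins of smooth muscle and myofibroblasts, were called: Tagln fell by 7.79 ± 0.62 (log2, SE; limma adjusted p = 0.00471) and Acta2 fell by 7.78 ± 0.86 (adjusted p = 0.0109). Ctgf, a secreted matrix protein, fell by 4.93 ± 0.72 (adjusted p = 0.0260). The fibrillar collagen genes Col1a2 and Col1a1 were at -7.00 ± 1.74 and -4.97 ± 1.42, Lox, the lysyl oxidase that cross-links them, at -5.37 ± 1.17, and S100a4 at -4.72 ± 1.25, with adjusted p from 0.0864 to 0.166. Lox, Mmp2 and Postn averaged below 1 FPKM in PT and entered the test, and the median, only through AstroEGFR. Of the list, 3 genes had a higher mean in PT, among them Tnc, the matrix protein tenascin C, at 2.21 ± 0.71 without overlap (adjusted p = 0.222), which was picked out after its values were seen. Col1a1, Col3a1 and Foxc1 are also among the fibroblast or meninges markers above.

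The epithelial list could hardly be tested. Of 24 genes that EMT factors repress, 13 were below 1 FPKM in every library and 2 entered the test. Jup, the junction protein plakoglobin, was at -1.67 ± 0.44 in PT (log2, SE; limma adjusted p = 0.141), and Tjp1 was at 0.27 ± 0.58. Cdh1, the E-cadherin gene, was listed at no more than 0.600 FPKM in AstroEGFR and PT, and at 1.7, 1.2 and 0 FPKM in AstroEGFR_1_Zfp423, 2 and 3.

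The dimer partners of the Twist proteins and their inhibitors came next. Of 7 E protein and Id genes tested, 0 were called in either direction by limma, and 3 had an unadjusted p below 0.05, beside 13.6% of all features. The inhibitors Id4, Id3 and Id1 were at -3.44 ± 0.84, -2.19 ± 0.53 and -1.54 ± 0.63 (log2, SE; adjusted p = 0.116, 0.116 and 0.337), without overlap between the groups. The E protein gene Tcf4 was at 0.53 ± 0.31. Among 17 genes of the TGF-beta pathway and other inputs of EMT, 2 were called lower and 0 higher, beside 0.922% and 0.318% of all features. Smad7, the inhibitory SMAD, fell by 2.21 ± 0.28 (adjusted p = 0.0156) and Bmp4, a ligand of the BMP receptors, fell by 2.53 ± 0.40 (adjusted p = 0.0324). Bmp4 was at 0.0606 to 0.364 FPKM in PT and, like Prrx2, entered the test only through AstroEGFR. The ligand gene Tgfb3 was at -2.58 ± 0.50 (adjusted p = 0.0633), Tgfb1 at -1.64 ± 0.62, Tgfb2 at 1.21 ± 0.46 and Hif1a, the hypoxia factor, at 1.02 ± 0.33.

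Of 13 other EMT-inducing factors tested, 0 were called by limma and 3 had an unadjusted p below 0.05, beside 1.24% and 13.6% of all features. Foxc1, Runx2 and Foxc2, factors of mesenchyme and bone, were at -2.07 ± 0.53, -1.64 ± 0.51 and -1.55 ± 0.61 (adjusted p from 0.133 to 0.320), and Gsc was at 0.75 ± 0.76. Of 22 corepressor and stability genes tested, 0 were called by limma and 2 had an unadjusted p below 0.05, a share below the 13.6% of all features. Lats2, a Hippo kinase, was at -1.26 ± 0.38, Ctbp2, a corepressor that Zeb proteins recruit, at -0.80 ± 0.33, Fbxl14 at -0.58 ± 0.32 and Hdac1, a histone deacetylase, at -0.55 ± 0.30. Of 10 paralogues of the factors, 2 entered the test, Prrx2 above and Scx, a tendon factor, at -1.79 ± 0.98.

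**Figure D5:**
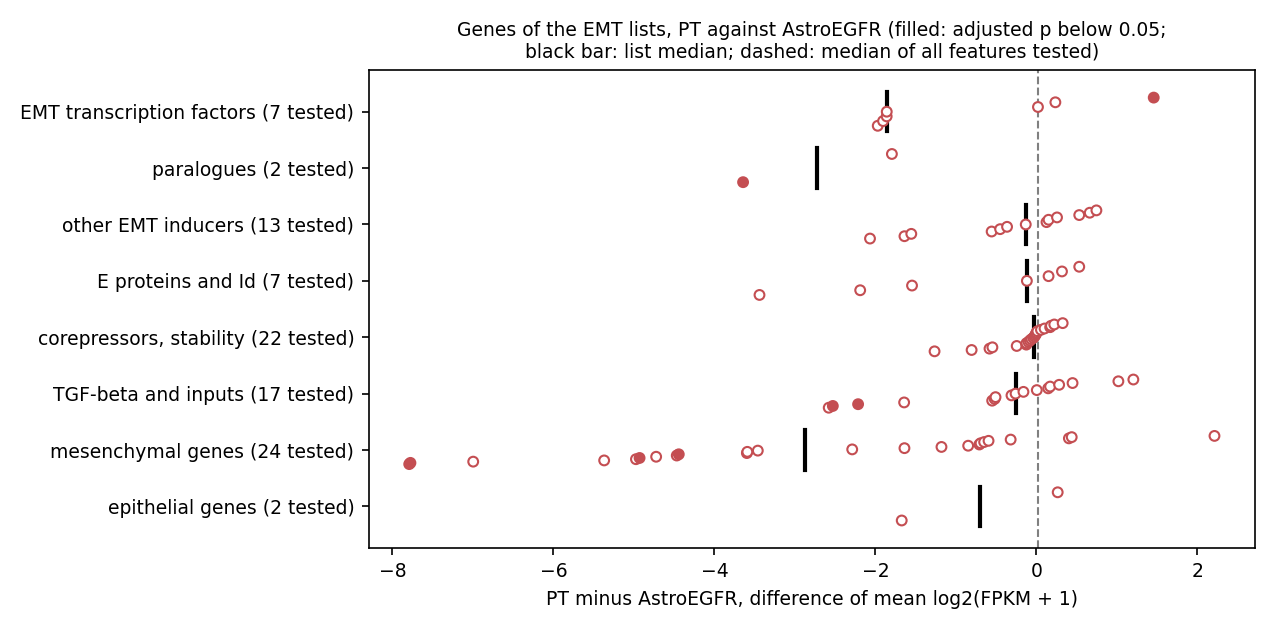
Differences of mean log2(FPKM + 1) between PT and AstroEGFR for each tested gene of 8 EMT lists, with filled points for an adjusted p below 0.05, black bars for list medians and a dashed line at 0.03, the median of all features tested. The mesenchymal list reaches furthest down, to -7.79, and Zeb1 is the filled point above 0.

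AstroEGFR_Zfp423 was compared with AstroEGFR of the same batch to ask how the factors stood with Zfp423 overexpressed. With the batch as a block, limma called 0 of 7 factors and 0 of 12366 features (0% called, 7.38% with an unadjusted p below 0.05). Of the 7 factors, 1, Twist1, had an unadjusted p below 0.05. Twist1 was also the 1 factor whose groups did not overlap, beside 11.5% of all features (5.87% lower, 5.68% higher). The median difference of the 7 factors was -0.24, beside 0.02 for all features.

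Twist1 was listed at 30.9, 32.8 and 37.9 FPKM in AstroEGFR_1_Zfp423, 2 and 3. These values were close together and all below the 3 AstroEGFR values. The difference was -1.24 ± 0.33 (log2, SE; limma adjusted p = 0.628), and the level was 0.248, 0.477 and 0.612 times that of AstroEGFR in batches 1, 2 and 3. Twist1 was lower in 3 of 3 batches, as were 15.2% of all features (16.3% were higher in all 3), and an exact permutation test over 3 pairs can give no p below 0.25, the value it gave. The 8 astrocyte and 6 neural progenitor markers also had lower means in AstroEGFR_Zfp423 (medians -1.77 and -1.36), and the 6 microglia or macrophage markers higher ones. Whether these shifts bear on Twist1 was not tested.

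The low factors split by batch. Snai1 was listed at 5.57, 8.89 and 0.0139 FPKM in AstroEGFR_1_Zfp423, 2 and 3, Snai2 at 2.90, 15.6 and 0.0106, and Twist2 at 1.13, 17.1 and 0.223. In batch 2 the levels were 9.34, 9.41 and 6.14 times those of AstroEGFR_2, whereas in batch 3 all 3 factors were close to 0. With group means removed, AstroEGFR_2_Zfp423 and AstroEGFR_3_Zfp423 had r = -0.111 and -0.262 with the astrocytes of their batches. These within-batch values thus rest on the labels. AstroEGFR_2_Zfp423 also held 471 FPKM of microglia or macrophage markers and 7.85 of astrocyte markers. What part this had in the split was not tested. The differences were -0.58 ± 1.41, -0.24 ± 1.33 and -0.44 ± 1.19 (log2, SE; limma adjusted p = 0.919, 0.971 and 0.927). Without batch 3 they were 1.32, 1.53 and 1.08, so their sign rested on batch 3, where AstroEGFR_3 was the highest astrocyte library and AstroEGFR_3_Zfp423 was near 0.

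Zeb1 was listed at 38.0, 25.9 and 63.4 FPKM in the 3 AstroEGFR_Zfp423 libraries, within the AstroEGFR range for batch 1 only. The difference was 0.15 ± 0.34 (log2, SE; limma adjusted p = 0.912), and without batch 3 it was -0.25. Zeb2 was listed at 30.4, 18.4 and 27.8 FPKM, higher than AstroEGFR in batches 1 and 3, with a difference of 0.51 ± 0.34 (adjusted p = 0.698). Prrx1 was listed at 62.2, 46.6 and 119 FPKM, with a difference of 0.02 ± 0.25 (adjusted p = 0.990), and kept the order of the batches seen in AstroEGFR. The ratio of Zeb1 to Zeb2 was 1.25, 1.40 and 2.28, lower than in AstroEGFR in 3 of 3 batches, with a mean log2 difference of -0.38 (exact permutation test, p = 0.25, the smallest possible). The ratio of Zeb1 to Twist1 was 1.23, 0.790 and 1.67, higher in 3 of 3 batches, with a mean log2 difference of 1.42, in batches where Twist1 was lower.

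In the surrounding lists limma called 0 genes in this comparison. An unadjusted p below 0.05 was seen for 1 of 2 paralogues, 1 of 13 other EMT inducers, 3 of 7 dimer partners, 1 of 22 corepressor and stability genes, 1 of 17 pathway genes, 0 of 25 mesenchymal genes and 0 of 6 epithelial genes, beside 7.38% of all features. Among mesenchymal genes Cdh2, the N-cadherin gene, was at -1.42 ± 0.56, Tagln at -1.30 (adjusted p = 0.818) and Col1a2 at 1.21 ± 1.51 (log2, SE). Cdh2 was the 1 of 25 tested whose groups did not overlap, a share below the 11.5% of all features. Id4, Id1 and Id3 were at -2.63 ± 0.72, -1.92 ± 0.65 and -1.26 ± 0.31 and Id2 at -0.84 ± 0.42. Hif1a was at 1.11 ± 0.22 and Tgfbr1, a TGF-beta receptor, at 1.03 ± 0.38, both higher without overlap, while Tgfb1 was at -1.25 ± 1.17 and Bmp4 at -0.83 ± 0.62. Among other EMT inducers Sox9 was at -1.44 ± 0.34, Tbx2 at -1.05 ± 0.63, Runx2 at -1.02 ± 0.53 and Tbx3 at -0.90 ± 0.51. Ezh2, the PRC2 methyltransferase, was at -0.73 ± 0.30, Hdac1 at -0.68 ± 0.22, Fbxl5 at 0.62 ± 0.23 and Limd1 at 0.46 ± 0.24. Scx was at -1.46 ± 0.43 and Prrx2 at -0.71 ± 1.28. Among epithelial genes Cdh3 was at 1.48 ± 1.25, Tjp1 at -0.57 ± 0.39, Jup at -0.52 ± 0.58 and Cldn1 at 0.51 ± 0.85.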

How the data were processed

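The authors deposited 1 matrix of FPKM values by gene symbol, and the submitters' processing notes name TopHat 1.3, Cuffnorm and mm9. The labels give a TruSeq RNA kit and a lentiviral Zfp423 vector, while the study describes stranded, rRNA-depleted libraries and a retroviral vector. If strand was not used in counting, reads of Zeb1, Zeb2, Prrx1 and Twist2 cannot be told apart from those of overlapping antisense transcripts. FPKM hold no counts, so the depth is unknown and no count model was used.

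Features averaging 1 FPKM or more over the libraries compared were tested on log2(FPKM + 1) with limma 3.58.1 in R 4.3.3 (empirical Bayes with a trend, Benjamini-Hochberg adjustment over all features tested, threshold 0.05). The procedure was also run on simulated data. Those had independent libraries and larger changes than the factors showed, so the run does not give the power for the factors. The log2(FPKM + 1) scale understates the change of low genes. AstroEGFR_Zfp423 was compared with AstroEGFR with the astrocyte batch as a block, and PT without one. Groups come from the labels and the batch of PT from the study. Each PT library deviated with its own batch (r from 0.346 to 0.499), while for AstroEGFR_Zfp423 r was 0.241, -0.111 and -0.262 in batches 1, 2 and 3. AstroEGFR_2_Zfp423 deviated with AstroEGFR_3 (r = 0.308) and AstroEGFR_3_Zfp423 with AstroEGFR_2 (r = 0.224), so the block and the within-batch values of that comparison rest on the labels. The study reports much stronger Zfp423 overexpression in batch 3. Zfp423 stood at 105 FPKM in AstroEGFR_3_Zfp423, beside 15.7 and 9.73 in AstroEGFR_1_Zfp423 and 2. A mix-up of libraries was not tested. PT1 and PT4 share a batch, so p-values measure the spread between cultures that are not fully independent. Exact permutation tests were two-sided, over 35 splits or the 8 sign patterns of 3 pairs.

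The 7 factors, gene lists and markers were chosen with earlier results of these data known. From each list the called genes, at most 6, and up to 4 others with the largest differences were named. The result of 1 mesenchymal gene is not reported singly here. Alternatives were a pseudocount of 0.1, no filter, median-ratio scaling, no trend, library weights, all 10 libraries in 1 fit, the block or its absence, PT1 and PT4 averaged, and leaving out libraries.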

Additional observations from a re-analysis of the deposited data

Results flagged for a closer look

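Twist1 in PT was flagged because 1 library lay far from the other 3 of its group. PT2 held 5.66 FPKM, and the gap from it to the next PT library took 0.951 of the range of the group on the log2(FPKM + 1) scale, above the critical value of 0.829 for 4 samples. The 7 factors were tested in this way in PT, and chance flags about 5% of groups. PT2 was also the lowest PT library for the summed fibroblast or meninges markers, at 20.0 FPKM. Without Col1a1 and Col3a1, however, these summed to 19.3 in PT2 and to between 24 and 28 in the other PT libraries, a narrow range. The nearest library to PT2 was AstroEGFR_3_Zfp423 (r = 0.837). Without PT2 the difference of Twist1 between PT and AstroEGFR was -1.27 (log2; limma adjusted p = 0.155), against -1.86 with it.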

How the results depend on the processing

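Zeb1 was higher in PT under 16 of 16 alternatives (log2 difference from 1.37 to 1.57) and was called under 6 of them. Its adjusted p was 0.0650 with all 10 libraries in 1 fit and 0.181 without both batch 3 libraries. The number of features called in PT, 152, was 519 with library weights, 62 with all 10 libraries, 59 with PT1 and PT4 averaged and 8 without both batch 3 libraries. With 1 library left out it ran from 7 (without AstroEGFR_1) to 123 (without AstroEGFR_2), and it was 54 without AstroEGFR_3, 97 without PT1, 70 without PT2 and 58 without PT4. With the astrocyte batch as a block, which pairs PT with its astrocytes, 475 features were called (3.87%), 146 higher and 329 lower, and no call on a factor changed. Scaling moved the median of all features from 0.03 to -0.0027 in PT. Signs turned in PT for Zeb2, at -0.026 without both batch 3 libraries and from -0.024 (without AstroEGFR_3) to 0.38 with 1 library left out. They turned for Prrx1, at -0.013 with scaling, -0.26 with weights, -0.25 without batch 3 and from -0.58 (without PT3) to 0.39 (without PT2) with 1 library left out, including -0.43 without AstroEGFR_2. Snai2 and Twist2 did not pass the filter without AstroEGFR_3, nor did Snai2 without both batch 3 libraries, where Twist2 was at -0.97. A pseudocount of 0.1 gave -3.02 for Snai1, -3.65 for Snai2 and -3.61 for Twist2 in PT, none of them called.

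For AstroEGFR_Zfp423, 0 features were called in the fit with the batch block, 2 with library weights, 2 without the block, and 0 to 51 with 1 batch left out, the highest without batch 2. Library weights turned the signs of Snai1 (0.21), Snai2 (0.38), Zeb1 (-0.088) and Prrx1 (-0.27), and scaling that of Prrx1 (-0.020). With 1 batch left out the differences ran from -2.05 to 1.32 for Snai1, -1.68 to 1.53 for Snai2, -1.80 to 1.08 for Twist2, -0.25 to 0.41 for Zeb1 and -0.14 to 0.22 for Prrx1. For Snai1, Snai2 and Twist2 the highest was without batch 3 and the lowest without batch 2. Twist1 was lower and Zeb2 higher under 10 of 10 alternatives, and neither was called. The cause of these shifts was not tested. FPKM hold no counts, so how far depth limits the low factors is unknown.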
